A study of Mus musculus with 6 samples.

Results

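Expression of 10 genes of the interleukin-1 (IL-1) family and the inflammasome was examined in macrophages (MPs) sorted from injured muscle of Control and Cripto KO mice. Cripto is a membrane-anchored co-receptor of the TGFβ superfamily. The members were the cytokines Il1a, Il1b and Il18, the inhibitors Il1rn and Il18bp, the receptor subunit Il1rap, and the inflammasome genes Nlrp3, Pycard, Casp1 and Gsdmd. They were taken by symbol from the 13008 genes of the deposited table, where all 10 were found. The rule used no measured value, but the genes were chosen with earlier results of these data known. RNA-seq was performed on F4/80+/Ly6C Low MPs isolated by FACS on day 5 after cardiotoxin injection into hind limb muscles, from C57BL/6J mice of 3 months that the labels give as male. The 3 Control samples are labelled wild type and the 3 Cripto KO samples Tg:LysMCre::Cripto-/-. The study's methods describe the sorted cells as GFP+ and the mice as Tg:LysMCre::R26mTmG in Control and Tg:LysMCre::R26mTmG::Cripto fl/fl in Cripto KO, so that Cre and the reporter would be shared by both groups. Cre is driven by the lysozyme M locus, which is active in monocytes, macrophages and neutrophils, and the study describes deletion of Cripto in MPs as incomplete. The transcript of Cripto itself was not analysed here.

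IL-1α, IL-1β and IL-18 are alarm cytokines of the innate immune system. IL-1β and IL-18 are made as inactive precursors, and a sensor such as NLRP3 with the adaptor ASC (encoded by Pycard) assembles the inflammasome, in which caspase-1 cleaves them and the pore protein gasdermin D. NF-κB signaling typically has to raise Il1b and Nlrp3 transcripts first, whereas the IL-1 receptor antagonist (Il1rn) and the IL-18 binding protein (Il18bp) restrain the released cytokines. After muscle injury, IL-1β is chiefly a product of early infiltrating myeloid cells. Transcript levels do not report on cleavage or secretion.

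The sequences just upstream of the transcription start are shown for 4 members. Nlrp3 and Il1rap are the members whose Control and Cripto KO values did not overlap, and Il1b and Il1a are the IL-1 ligands. Each line holds 250 bases before the RefSeq start (GRCm38.p6), 5′ to 3′ on the strand of the gene. Capitals mark matches on either strand to any of the motifs that follow. The κB motif was searched in a loose form (3 G, then 5 free bases, then 2 C). The AP-1 motif was searched as TGANTCA. The core bound by PU.1 and other ETS factors was searched as GGAAGT. The C/EBP motif was searched as TTGCNNAA. The TATA box was searched as TATAAA.
Nlrp3 (chr11:59541319-59541568, plus strand): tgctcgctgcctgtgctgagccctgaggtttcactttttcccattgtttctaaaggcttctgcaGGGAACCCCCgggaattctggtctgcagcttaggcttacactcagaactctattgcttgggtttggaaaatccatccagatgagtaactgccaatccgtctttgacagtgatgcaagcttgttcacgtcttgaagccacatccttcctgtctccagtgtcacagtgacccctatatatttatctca
Il1rap (chr16:26581455-26581704, plus strand): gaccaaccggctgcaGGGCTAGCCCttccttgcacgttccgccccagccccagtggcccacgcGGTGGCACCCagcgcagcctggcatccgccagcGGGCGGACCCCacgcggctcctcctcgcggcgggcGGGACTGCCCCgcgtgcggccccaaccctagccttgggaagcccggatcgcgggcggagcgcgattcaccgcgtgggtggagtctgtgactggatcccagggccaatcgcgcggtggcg
Il1b (chr2:129371140-129371389, minus strand): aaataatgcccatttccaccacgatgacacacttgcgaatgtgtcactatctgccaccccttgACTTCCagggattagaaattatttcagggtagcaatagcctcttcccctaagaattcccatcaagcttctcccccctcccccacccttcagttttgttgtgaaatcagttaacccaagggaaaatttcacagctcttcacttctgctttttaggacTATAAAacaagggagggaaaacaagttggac
Il1a (chr2:129309973-129310222, minus strand): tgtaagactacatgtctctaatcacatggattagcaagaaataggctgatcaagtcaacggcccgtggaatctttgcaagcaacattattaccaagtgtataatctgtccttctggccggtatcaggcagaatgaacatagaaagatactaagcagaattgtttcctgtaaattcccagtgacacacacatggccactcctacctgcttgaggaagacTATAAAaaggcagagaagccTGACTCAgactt
The 2 ligand promoters each held TATAAA, at 31 bases before the start in Il1b and 32 bases in Il1a, and 12.4% of 32817 RefSeq windows of this length held it. Il1a also held TGANTCA 12 bases before the start, found in 6.75% of windows, and Il1b held GGAAGT at 187 bases, found in 19.7%. Nlrp3 held the κB motif at 186 bases and Il1rap held it at 6 positions, some of which overlap one another, and this motif was in 45.8% of windows. The window of another RefSeq start of Nlrp3 held none of the searched motifs. TTGCNNAA, found in 9.57% of windows, was in none of these 4. Of the 9 members with a window, 4 held the κB motif, 3 TATAAA, 3 GGAAGT, 2 TGANTCA and 2 TTGCNNAA. Each member was counted by its nearest window alone, whereas the shares count every distinct RefSeq window. A match is a description of the letters and was not linked to binding of a factor.

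Values are given as the deposited normalized value, that is, reads plus 0.5 scaled to a normalized library of 1000000 reads. Recovered totals were 12688968 to 14141773 reads in Control and 14633880 to 15659847 in Cripto KO samples. A pair of Control samples stood apart from the rest. Fits without both of them leave 1 Control sample, so their estimates carry no spread in Control. Xist, which is transcribed from the inactive X chromosome, was 171 in Control replicate 1 and at most 0.885 elsewhere, against the label male. Lyz2, the gene into which LysMCre is inserted, was 11066 in Control replicate 2 and at most 28.3 elsewhere. Lyz2 was thus not alike among the Control samples, all labelled wild type, and the Cre genotype of each sample was not tested. Summed MP markers (12 of 12 in the table) were 18602 to 18786 in Control and 17512 to 18801 in Cripto KO samples. Fold changes are log2(Control/Cripto KO), from limma over all genes with Benjamini-Hochberg adjustment, and their intervals are 95% intervals without adjustment.

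None of the 10 members had an adjusted p-value under 0.05 in limma, where 0.131% of all genes did, and none had with edgeR or DESeq2, where 0.131% and 0.546% of all genes did. One member, Nlrp3, reached an unadjusted p-value under 0.05, which 8.59% of all genes did. The log2 fold change was above 0 in 9 members and in 52.6% of all genes, and its median was 0.09 over the members and 0.01 over all genes. In 2 members (Nlrp3 higher and Il1rap lower in Control) the 3 values of one group lay wholly above those of the other, as they did in 14.5% of all genes (8.02% higher and 6.43% lower in Control). Control replicate 1 held the highest value of 7 members, and of 21.3% of all genes. Without that sample the median over the members was 0.03. All members had a mean value of at least 1, so a filter at that level removed none.

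**Figure D1:**
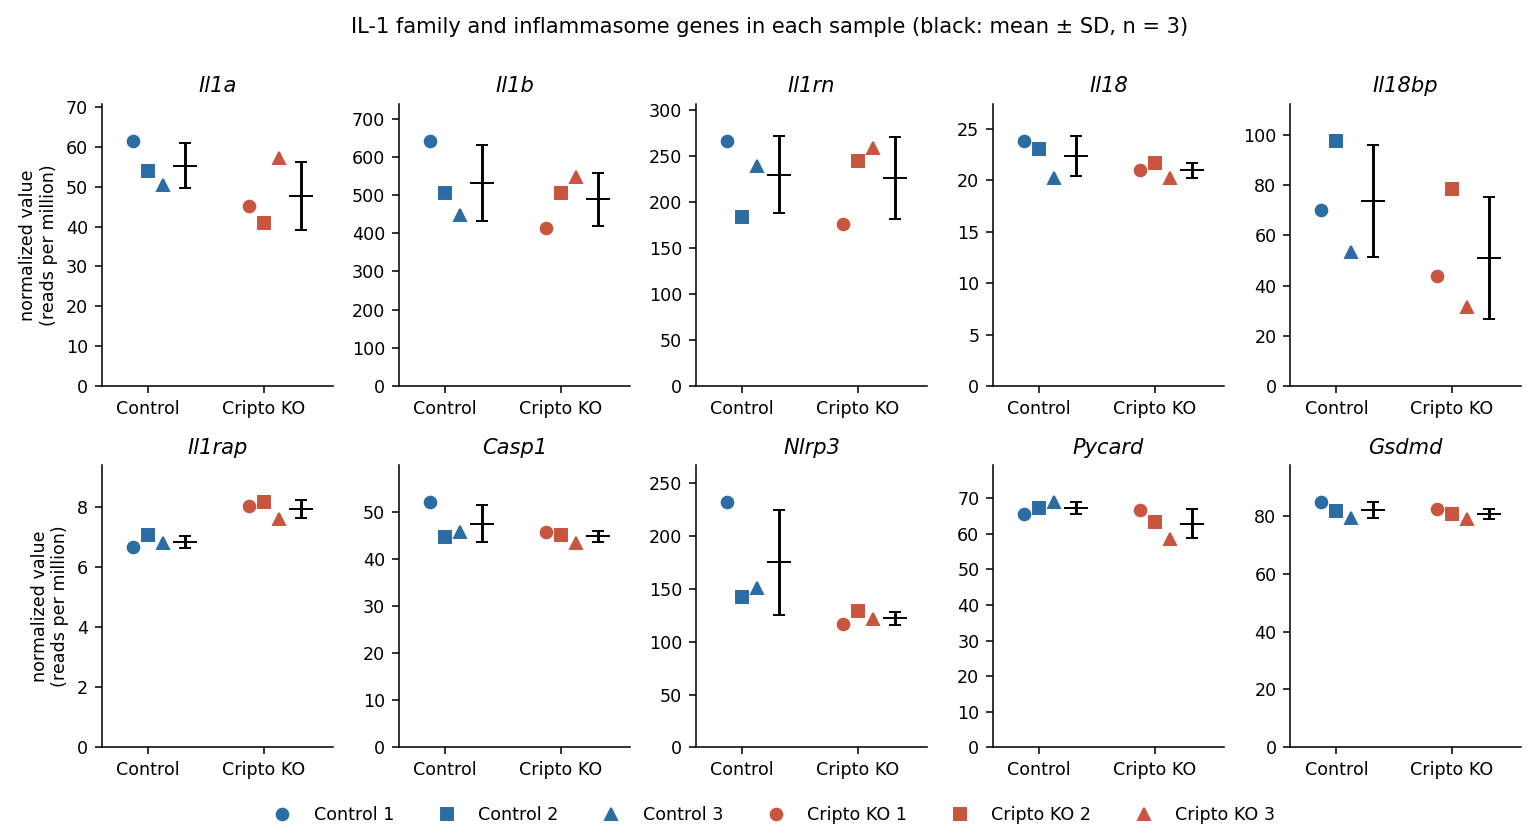
Normalized value of each member in each sample, on axes from 0. Points are samples, and black bars the mean ± SD (n = 3 in each group). Nlrp3 was 142 or higher in Control and 129 or lower in Cripto KO samples, Il1rap lay the other way round, and the groups overlapped in the other 8 genes.

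Il1b, the main secreted IL-1 of activated MPs, was 642, 504 and 448 in Control replicates 1, 2 and 3 against 414, 504 and 547 in Cripto KO replicates 1, 2 and 3. The highest value was in Control and the lowest in Cripto KO. Replicate 2 was at 504 in both groups, with Cripto KO replicate 3 above it and Control replicate 3 below it, so the groups overlapped. The means were 532 ± 99.6 (SD, n = 3 Control samples) against 489 ± 68.3 (SD, n = 3 Cripto KO samples), which is 0.11 on the log2 scale (interval -0.20 to 0.43, adjusted p = 0.856, limma). This interval runs from 0.868-fold to 1.35-fold, and the estimate was -0.03 without Control replicate 1 and -0.11 without both Control samples that stood apart.

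Il1a encodes IL-1α, which is active without cleavage by caspase-1. Its values were 61.5, 53.9 and 50.4 in Control against 45.2, 40.8 and 57.2 in Cripto KO replicates 1, 2 and 3. Of the Cripto KO samples 2 lay below every Control sample, and the third lay above 2 of them. The log2 fold change was 0.22 (interval -0.07 to 0.51, adjusted p = 0.69, limma). It was 0.36 without Cripto KO replicate 3 (adjusted p = 0.833, limma), 0.14 without Control replicate 1, 0.11 without Cripto KO replicate 2 and 0.09 without both Control samples that stood apart. Il1a and Il1b lie on chromosome 2 of GRCm38 (129299610 to 129309972 and 129364570 to 129371139), both on the minus strand. The ratio of Il1a to Il1b was 0.105 ± 0.00845 (SD, n = 3 Control samples) against 0.0983 ± 0.0152 (SD, n = 3 Cripto KO samples), a difference within the spread of the samples.

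Il18 (chromosome 9, 50554827 to 50581840, plus strand) encodes the cytokine that drives interferon-gamma production by lymphocytes. It was 23.8, 23.0 and 20.2 in Control against 21.0, 21.6 and 20.2 in Cripto KO samples, so that all 6 samples lay close together. Its estimate of 0.09 on the log2 scale had an interval of -0.13 to 0.31 (adjusted p = 0.832, limma).

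The antagonist Il1rn (chromosome 2, 24336853 to 24351494, plus strand) was 267, 184 and 239 in Control against 176, 244 and 259 in Cripto KO replicates 1, 2 and 3. Each group held 1 low and 2 high samples. Its means, 230 ± 42.0 (SD, n = 3 Control samples) against 226 ± 44.3 (SD, n = 3 Cripto KO samples), differed by 0.03 on the log2 scale (interval -0.35 to 0.40, adjusted p = 0.975, limma). The sign of this estimate was not stable, as it ranged from -0.15 to 0.18 when single samples were left out and was -0.03 after quantile normalization.

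Il18bp, the secreted decoy for IL-18 (chromosome 7, 102014885 to 102018690, minus strand), was the most variable member. Its values were 70.0, 97.7 and 53.4 in Control against 43.7, 78.3 and 31.3 in Cripto KO replicates 1, 2 and 3. Replicate 2 was the highest and replicate 3 the lowest in both groups, and the groups overlapped. The coefficient of variation was 30.3% in Control and 47.6% in Cripto KO MPs, where counting error alone would give 3.22% and 3.65%. Its log2 fold change was 0.59, the largest of the members (interval -0.12 to 1.30, adjusted p = 0.663, limma). It was 0.29 without Cripto KO replicate 3, 0.36 without Control replicate 2, 0.95 without Cripto KO replicate 2 and 0.17 without both Control samples that stood apart. The interval leaves room for a 2.45-fold higher level in Control.

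The balance of cytokine and inhibitor was taken as a ratio within each sample. Il1b over Il1rn was 2.41, 2.74 and 1.88 in Control against 2.35, 2.06 and 2.12 in Cripto KO replicates 1, 2 and 3. Both the highest and the lowest ratio were in Control. The mean ratio was 2.34 ± 0.435 (SD, n = 3 Control samples) against 2.18 ± 0.154 (SD, n = 3 Cripto KO samples), and the difference turned its sign without Control replicate 2. Il18 over Il18bp was 0.340, 0.236 and 0.378 in Control against 0.480, 0.276 and 0.646 in Cripto KO samples. Here the lowest ratio was in Control and the highest in Cripto KO, with overlap between the groups. The means were 0.318 ± 0.0737 (SD, n = 3 Control samples) against 0.467 ± 0.185 (SD, n = 3 Cripto KO samples). The log2 difference of this ratio was -0.50, and it was -0.22 without Cripto KO replicate 3, -0.30 without Control replicate 2 and -0.84 without Cripto KO replicate 2. No test was made on the ratios, because they are built from members already tested.

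**Figure D2:**
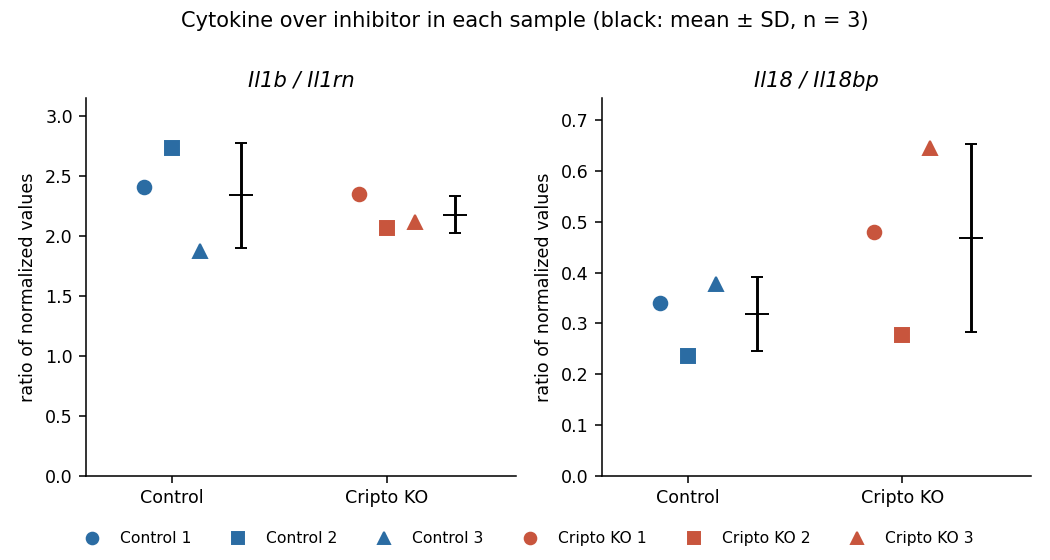
Ratio of normalized values of Il1b to Il1rn and of Il18 to Il18bp in each sample, on axes from 0. Points are samples, and black bars the mean ± SD (n = 3 in each group). For both ratios the groups overlap.

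Il1rap encodes the accessory chain that IL-1 and IL-33 receptors need to signal (chromosome 16, 26581704 to 26730117, plus strand). It was at 6.66, 7.08 and 6.81 in Control against 8.03, 8.18 and 7.62 in Cripto KO samples. All 3 Cripto KO values lay above all 3 Control values. It rested on 83 to 126 reads per sample, and the log2 fold change was -0.21 (interval -0.51 to 0.09, adjusted p = 0.706, limma). The coefficient of variation between replicates, 3.06% in Control and 3.66% in Cripto KO MPs, was smaller than the 10.6% and 9.24% that counting error alone would give. Leaving out single samples kept the estimate between -0.24 and -0.19.

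Among the inflammasome genes, Nlrp3 (chromosome 11, 59541568 to 59566956, plus strand) encodes the sensor. Its values were 232, 142 and 151 in Control against 117, 129 and 121 in Cripto KO replicates 1, 2 and 3. Control replicate 1 stood well above the rest, and the other Control samples still lay above every Cripto KO sample. The means of 175 ± 49.7 (SD, n = 3) and 122 ± 6.20 (SD, n = 3) gave a log2 fold change of 0.48 (SE 0.16, interval 0.12 to 0.85), or 1.40-fold, with an adjusted p of 0.494 in limma. The adjusted p ranged from 0.0903 with DESeq2 to 0.86 without Cripto KO replicate 3 over all alternatives. Without Control replicate 1 the log2 fold change was 0.26 (SE 0.07, adjusted p = 0.276, limma). Without both Control samples that stood apart it was 0.30, resting on 1 Control sample. Among the members, the interval of Nlrp3 was the one that did not reach 0, and the gene did not pass the threshold after adjustment in any alternative.

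The partners of NLRP3 varied little. Pycard, the adaptor (chromosome 7, 127989708 to 127993867, minus strand), was 65.6, 67.2 and 68.9 in Control against 66.6, 63.4 and 58.6 in Cripto KO samples. Its groups overlapped in 1 Cripto KO sample, and the log2 fold change was 0.10 (interval -0.07 to 0.26, adjusted p = 0.749, limma). Casp1, the protease (chromosome 9, 5298517 to 5307265, plus strand), was 52.0, 44.6 and 45.7 in Control against 45.8, 45.0 and 43.4 in Cripto KO samples, with Control replicate 1 the highest. Its log2 fold change was 0.08 (interval -0.10 to 0.27, adjusted p = 0.815, limma), and 0.02 without Control replicate 1. Gsdmd, which encodes the pore-forming substrate (chromosome 15, 75862327 to 75867408, plus strand), was at 84.8, 81.9 and 79.4 in Control against 82.6, 80.8 and 79.0 in Cripto KO samples. All 6 values were interleaved, and its estimate of 0.02 on the log2 scale had an interval of -0.12 to 0.17 (adjusted p = 0.952, limma). For Casp1 and Gsdmd these intervals stay within 0.918-fold to 1.21-fold, whereas for Nlrp3 the interval reached 1.80-fold.

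**Figure D3:**
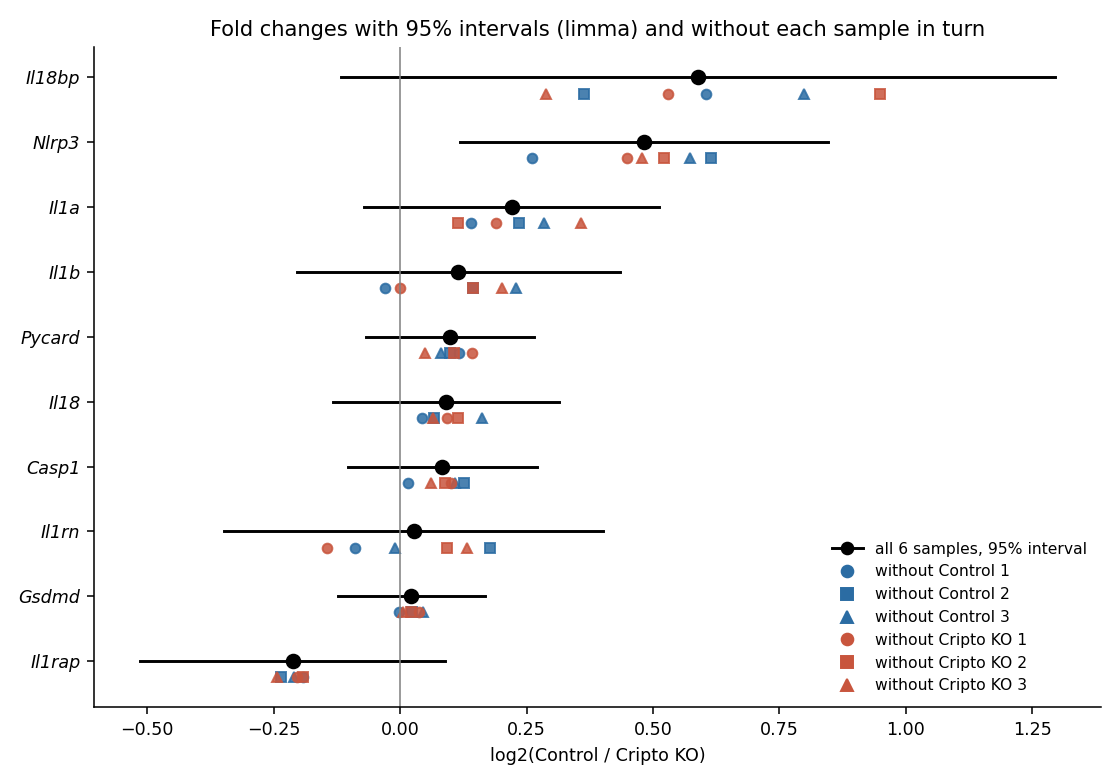
Log2(Control/Cripto KO) of each member. Black points and lines are the limma estimate and its 95% interval over all 6 samples, and the coloured symbols below them are the estimates without 1 sample in turn. The interval of Nlrp3 (0.12 to 0.85) is the one that does not reach 0, and its estimate without Control replicate 1 is 0.26.

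Levels of different genes were compared per kb of merged exons, as the range over the 6 samples. Il1b was at 217 to 337 and lay above Il1rn, at 31.7 to 48.2, without overlap. From Il1rn downward, Gsdmd (33.2 to 35.7), Nlrp3 (28.8 to 57.3), Casp1 (29.0 to 34.7), Il1a (20.7 to 31.2), Il18 (19.6 to 23.1), Il18bp (10.4 to 32.3) and Pycard (15.4 to 18.1) followed in the order of their medians, and each overlapped its neighbour. Il1rap, at 0.587 to 0.720, lay below all of them without overlap. Per kb, the level of Il1b was 6.79 ± 1.26 (SD, n = 3) times that of Il1rn in Control and 6.32 ± 0.448 (SD, n = 3) times in Cripto KO MPs. Without division by length these mean ratios were 2.34 and 2.18, and merged exons span 1907 bp in Il1b and 5535 bp in Il1rn. With the length of the principal transcript, given for 6 members, the order among those 6 stayed as it was. No such length was given for Il1rn, Il18, Il18bp and Il1rap, whose places rest on merged exons alone.

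Part of the reads of some members could belong to other genes. Transcripts annotated on the opposite strand share 10% of the 31-base words of Il1a (Gm14023), and of the words of Pycard 12.7% occur in other genes, mostly Gm45205. For Il1rap the share was 4.33% (Gm20319), for Il18bp 1.6% (Numa1) and for Il1rn 0.379%, and it was 0 for Il1b, Il18, Casp1, Nlrp3 and Gsdmd. The library kit named in the labels does not mark strand, so such reads cannot be told apart.

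The pattern of Il1b over the 6 samples was compared with that of the 7729 other genes with a mean value of at least 10. The genes most like it by Pearson correlation of log2 values were Arl6ip5 (r = 0.989), Lipe (0.988), Notch2 (0.987), Arl4a (0.977) and Tdg (0.973). Each of them was highest in Control replicate 1 and second highest in Cripto KO replicate 3, as Il1b was. Of the members, Nlrp3 (0.711), Il1rn (0.686) and Il1a (0.682) were the most like Il1b, but 808 genes or more were as like it. These correlations describe 6 samples of the same libraries.

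Other genes of the pathway were read from the same fit, in 7 lists of 87 genes, of which 67 were in the table. The lists were written with earlier results of these data known, so their shares are not independent of those results. None of the 67 had an adjusted p-value under 0.05 (limma). At an unadjusted p-value under 0.05, 13 were higher and 1 lower in Control, together 20.9% of the 67 genes, against 8.59% of all genes (4.6% higher and 3.99% lower). The count was 9 without Control replicate 1 and 7 without Cripto KO replicate 3. The share of all genes in those fits was not taken, so the lower counts cannot be read as particular to the lists. The median log2 fold change of the 67 genes was 0.06.

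Inflammatory genes primed by NF-κB held 4 of these (11 in the table, median 0.13), all higher in Control. Ptgs2, which encodes the prostaglandin synthase COX-2, was 331, 317 and 324 in Control against 252, 243 and 246 in Cripto KO samples. These values lay in tight and separate groups, with a log2 fold change of 0.39 (SE 0.06, adjusted p = 0.0571, limma). Its adjusted p was 0.0369 with the robust option and 0.000429 with DESeq2, and went up to 0.336 over the other alternatives. Nfkbiz, an NF-κB cofactor (log2 fold change 0.30, adjusted p = 0.327, limma), and the chemokine Ccl3 (0.44, adjusted p = 0.47, limma) followed. Ccl4 was the remaining gene of the 4 (0.28, adjusted p = 0.517, limma), and was named after its value was seen. In the whole list 8 estimates were above 0 and 3 below. Tnf (-0.0013), Nfkbia (-0.05), Csf3 (-0.07), Cxcl2 (0.03), Il6 (0.12), Tnfaip3 (0.13) and Il12b (1.00) did not reach an unadjusted p-value under 0.05 in limma. They too were named after their values were seen.

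Regulators and triggers of the inflammasome (14 in the table, median -0.05) held 3 genes higher and 1 lower in Control. Gbp2 and Gbp5 are interferon-inducible GTPases that promote inflammasome assembly. Gbp2 was 58.2, 48.9 and 45.1 in Control against 36.7, 34.5 and 31.9 in Cripto KO samples, with no overlap, and its log2 fold change was 0.55 (SE 0.11, adjusted p = 0.166, limma; 0.00538 with DESeq2, and up to 0.638 over all alternatives). Gbp5 was at 0.45 (adjusted p = 0.491, limma). Brcc3, a deubiquitinase that acts on NLRP3, was at 0.39 (adjusted p = 0.512, limma) and was also named after its value was seen. Pstpip1, which encodes a partner of pyrin, was at -0.29 (adjusted p = 0.512, limma), and at -0.18 without Control replicate 2.

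Of 6 measured receptor genes of the family, Il1r1, the signaling receptor of IL-1, was 3.13, 2.31 and 2.49 in Control against 1.49, 2.02 and 1.48 in Cripto KO samples. The groups did not overlap, on 21 to 42 reads per sample, and the log2 fold change was 0.67 (interval 0.07 to 1.27, adjusted p = 0.533, limma). Il1rl2, the IL-36 receptor, was at -0.45 (adjusted p = 0.587, limma) and the decoy receptor Il1r2 at 0.62 (adjusted p = 0.671, limma). The estimate of Il1r2 was 0.27 without Cripto KO replicate 2, 0.30 without Control replicate 1 and 0.24 without both Control samples that stood apart, and that of Il1rl2 was -0.24 without Control replicate 1 and -0.18 without both. Among 15 genes of receptor signaling (median 0.06), Peli1 (0.24, adjusted p = 0.512, limma) and the kinase Irak4 (0.20, adjusted p = 0.571, limma) had unadjusted p-values under 0.05, and Peli2 was at 0.28 (adjusted p = 0.588, limma). Without both Control samples that stood apart, Irak4 was at 0.09 and Peli2 at 0.06, and without Control replicate 1 alone Peli2 was at 0.17. These ligases and kinases act directly below the IL-1 and Toll-like receptors. Il33 was the single other ligand of the family in the table, with 2 to 11 reads per sample and an estimate of -0.66 (adjusted p = 0.808, limma), which was -0.17 without Control replicate 1 and -1.08 without Cripto KO replicate 2.

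Other inflammasome sensors (10 in the table, median -0.02) were Ifi204, a DNA sensor of the AIM2-like family (0.29, adjusted p = 0.522, limma), Nlrp1b (-0.40, adjusted p = 0.739, limma), Nlrc4 (-0.12, adjusted p = 0.846, limma) and 7 more, of which Ifi204 had an unadjusted p-value under 0.05. Ifi204 was at 0.16 without Control replicate 1 and at 0.11 without both Control samples that stood apart. Nlrp1b was at -0.14 without Cripto KO replicate 3, -0.22 without Control replicate 2 and -0.71 without Control replicate 1, and Nlrc4 at -0.01 without Control replicate 3 and -0.20 without Control replicate 1. The Naip, Nlrp1 and Ifi200 genes are close paralogs, so their reads are uncertain. Of 10 other caspases and pore proteins (median 0.09), Ripk1, a kinase of cell death signaling (0.22, adjusted p = 0.529, limma), and Casp4, the sensor of cytosolic lipopolysaccharide also known as caspase-11 (0.37, adjusted p = 0.548, limma), had unadjusted p-values under 0.05. Casp4 was at 0.21 without Cripto KO replicate 1. Casp8 was at 0.12 (adjusted p = 0.724, limma), and at 0.18 without Control replicate 2.

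**Figure D4:**
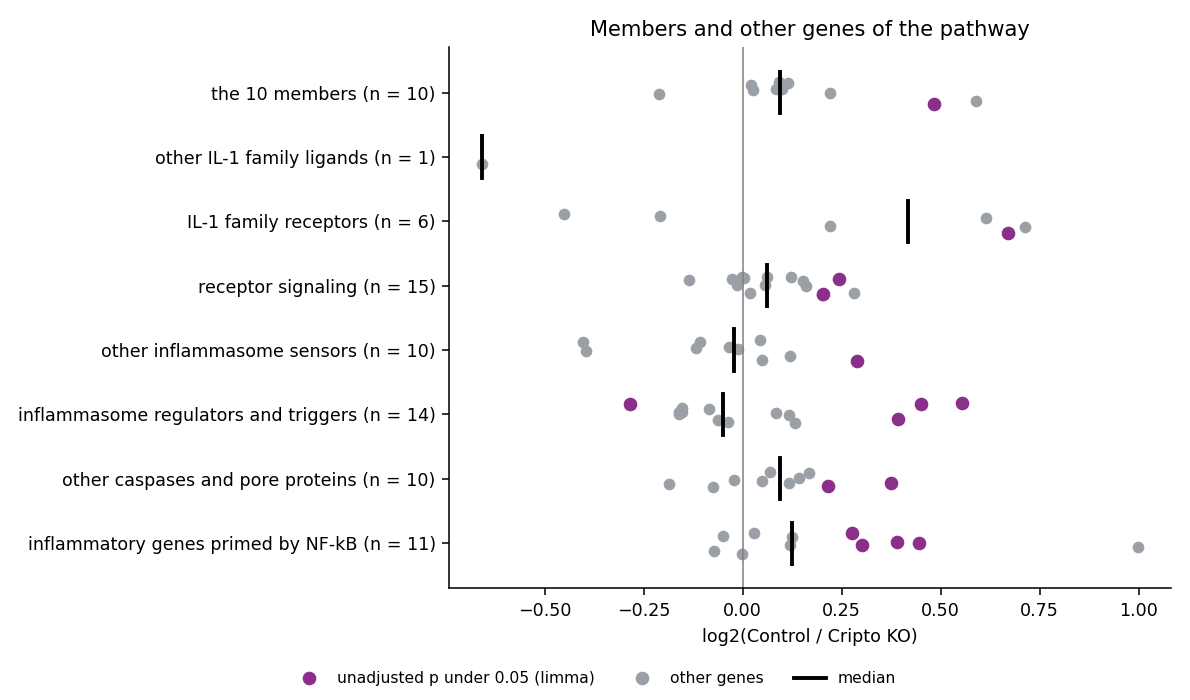
Log2(Control/Cripto KO) of the 10 members and of the measured genes of 7 pathway lists. Each point is a gene, the vertical bar is the median of the list, and purple points had an unadjusted p-value under 0.05 in limma. Of the 67 listed genes 13 purple points lie to the right of 0 and 1 to the left, and no gene passed after adjustment.

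Neutrophils and monocytes also make IL-1β and its antagonist. Summed neutrophil markers (10 of 13 in the table) were 107 to 116 in Control and 102 to 112 in Cripto KO samples. Csf3r, which MPs also express, made up most of this sum (mean 97.0), and S100a9, Retnlg, Camp and Ngp had at most 3 reads in every sample. Monocyte markers (9 of 9) summed to 748 to 825 and 776 to 933, and a large part of this was F13a1 (mean 419). Dendritic cell markers (6 of 8) summed to 9.46 to 11.9 and 9.77 to 10.3, and endothelial markers (7 of 7) to 54.8 to 62.2 and 54.7 to 61.2. Of the lymphocyte markers 3 of 12 were in the table, at 74.8 to 95.2 and 62.5 to 77.7, nearly all of it Cd4. Fibroblast markers (8 of 8) summed to 521 to 546 in Control and 614 to 670 in Cripto KO samples, without overlap, and muscle markers (7 of 10) to 31.9 to 66.7 and 16.6 to 48.4. Of the 7 muscle markers, 4 were higher and 1 lower in Control at an unadjusted p-value under 0.05 (limma), and of the 8 fibroblast markers 6 were lower. Over all genes 4.6% were higher and 3.99% lower at that level. Of the 3 lymphocyte markers 1 was higher, and no marker of macrophages, monocytes, neutrophils, dendritic cells or endothelial cells reached it. The part of these cells in the values of the members was not tested, and fewer cells of a type cannot be told apart from less RNA per cell in such bulk samples.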

How the data were processed

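RNA-seq libraries of 3 Control and 3 Cripto KO samples were analyzed. The authors trimmed reads with Cutadapt 1.7.1 (reads under 30 bp were discarded), quantified transcripts of GRCm38 (release 91) with RSEM 1.2.20 and normalized them with LIMMA. The labels also name edgeR among the tools. The deposited table gives 1 normalized signal for each gene in each sample, which is reads plus 0.5 scaled to a normalized library size of 1000000. The values of a sample therefore do not sum to exactly that number. Of its 78048 values, 100.0% converted back to whole reads within 0.01 read, and no value was 0. Of the 13008 genes, 147 have no symbol.

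Groups were compared with limma (version 3.58.1, R 4.3.3), using a variance trend (eBayes) on log2-transformed values of all genes, with no added pseudocount and no replicate block. The count tests on recovered reads, edgeR (version 4.0.16, quasi-likelihood, TMM) with 17 genes at an adjusted p-value under 0.05 and DESeq2 (version 1.42.0), were alternatives, beside other pseudocounts, scalings, variance models and omitted samples. The limma and edgeR fits were also run on simulated counts, whose outcome is not given here. Intervals and p-values cover the spread between these samples only, and counting errors cover the number of reads alone. Positions and lengths are from GENCODE M21 (GRCm38), promoters from RefSeq (GRCm38.p6), where 9 of 10 members matched (all but Gsdmd). The members and gene lists were chosen with earlier results of these data known. Named are all members, the 3 genes with the smallest p of each pathway list, and the 5 genes most like Il1b. A symbol with 2 IDs (Itgam) was represented by the ID with the higher mean. Figures were made with Python 3.11.15 and matplotlib 3.10.9.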

Additional observations from a re-analysis of the deposited data

How the results depend on the processing

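No member had an adjusted p-value under 0.05 in any of 19 alternatives, and DESeq2 came closest (Nlrp3, 0.0903). The number of genes called among all genes was 17 and became 6 with quantile normalization, 5 without a variance trend, 31 with the robust option, 9 with voom weights and 71 with DESeq2, and went from 5 (without Cripto KO replicate 2) to 31 (without Control replicate 1) when single samples were left out. It was also at least 1.5 times lower without Control replicate 3 (7), Cripto KO replicate 1 (10) and Cripto KO replicate 3 (7). The fit without both Control samples that stood apart was chosen after seeing the data. It leaves 1 Control sample, so its count of called genes is not given. Nlrp3 had an unadjusted p-value under 0.05 (limma) whichever single sample was left out. Il18bp also had one without Control replicate 3 or Cripto KO replicate 2, and Il1a without Cripto KO replicate 3. Without a variance trend Il1rap had one and Nlrp3 did not. The share of all genes at that level in these fits was not taken, so the members cannot be set beside it. Among the 67 pathway genes, 1 was called with the robust option and 2 with DESeq2. Those at an unadjusted p-value under 0.05 numbered 14, with 8 without a variance trend and 7 to 12 when single samples were left out. For these alternatives too the share of all genes was not taken, so the change in count cannot be read as particular to the lists. The sign of small estimates changed. Without both Control samples that stood apart the log2 fold change was -0.11 for Il1b, -0.0520 for Il18, -0.0252 for Gsdmd and 0.10 for Il33. After quantile normalization it was -0.0287 for Il1rn and -0.0288 for Gsdmd. With single samples left out it went from -0.0293 to 0.23 for Il1b, -0.15 to 0.18 for Il1rn and -0.0030 to 0.0452 for Gsdmd. The log2 difference of the Il1b over Il1rn ratio, 0.09, went from -0.0338 (without Control replicate 2) to 0.24. The cause of these changes was not tested.

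There was no sign over all genes that replicate numbers pair the samples, but so few samples in each group cannot exclude it. Deviations from the group means of same-numbered samples had correlations of -0.21, -0.00522 and -2.46e-05 over 11960 genes, and no sample correlated best with its own number. With a replicate block, 2 genes were called among all genes. Nlrp3 and Il18bp had an unadjusted p-value under 0.05 in that fit, with adjusted p-values of 0.624 and 0.267 (limma). The share of all genes at that unadjusted level was not taken with the block, so the members cannot be set beside it. Reads limit the precision most for Il1rap.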
